A study of Mus musculus with 4 samples.

Results

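Genes of amino acid transport and of the ATF4 stress response were followed in colonic group 2 innate lymphoid cells (ILC2s), which are lymphocytes of barrier tissues that have no antigen receptor and make type 2 cytokines. The set was given by name: amino acid transporters, enzymes of serine, asparagine, proline and folate metabolism, and genes of the integrated stress response. All 35 of 35 named genes were found by NCBI gene number among the 27179 genes of the deposited table. The cells were sorted from colons of the C57BL/6J strain, from 2 mice fed a control diet and 2 fed a high-fiber diet, with 1 mouse per library. The sources used here give neither age, sort gates, kind of fiber nor time on the diet. The comparison asked which of these transcripts differed between the 2 diets.

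The integrated stress response joins 4 kinases to 1 target. Each kinase senses a different strain, such as lack of amino acids, heme shortage, viral RNA or unfolded protein, and phosphorylates eIF2alpha, a factor that starts translation. General protein synthesis then falls while the mRNA of the transcription factor ATF4 is translated better, and ATF4 with its C/EBP partners switches on amino acid transporters, amino acid synthesis and regulators of growth and death. Since ATF4 is controlled mainly at translation, its mRNA level is only a partial readout of its activity.

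Library totals ran from 20253987 to 30406730 counts. All 15 genes of an ILC2 marker list had counts, and their sum lay between 13017 and 18465 CPM (counts scaled to equal library size with TMM factors). High-fiber library 2 stood apart on the first principal component, which held 47.0% of the variance between libraries (70.4, against -37.0, -27.4 and -5.95 for control 1, control 2 and high-fiber 1). Markers of epithelial cells (25.1 to 37.3 CPM in sum, 9 of 12 at 0 counts) and of mast cells, basophils and eosinophils (1.11 to 2.45 CPM, 9 of 12 at 0 counts) were scarce. Sums of T cell markers and of NK cell and ILC1 markers were larger, but few genes held most of them. T cell markers summed to 314 to 443 CPM (9 of 12 with counts, Cd8a, Cd8b1 and Cd5 at 0). Cd3g, at 143 to 289 CPM, and Lck, at 82.5 to 186 CPM, were the highest of them. Cd3e and Trac did not exceed 13.2 and 14.9 CPM in any library. Markers of NK cells and ILC1 summed to 242 to 391 CPM (8 of 10 with counts, Eomes and Klra8 at 0). Klrk1 was the highest of these, at 210 to 337 CPM, while Ncr1 did not exceed 10.9 CPM. In bulk RNA of sorted cells, fewer cells of a type and less RNA per cell cannot be told apart.

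No member passed the test between diets. Of the 35 genes 31 entered edgeR's quasi-likelihood test, and 0 of them had a Benjamini-Hochberg adjusted p under 0.05, where 0.0338% of all 11841 tested genes did (4 genes). The smallest adjusted p among members was 0.444. At an unadjusted p under 0.05 there were 4 members, Cebpb, Asns and Psat1 higher and Ppp1r15a lower on the high-fiber diet, which is 12.9% of 31 against 8.8% of all tested genes (4.7% higher and 4.1% lower). DESeq2, run as an alternative, called 2 members, Cebpb and Asns, both higher, where it called 1.53% of 15425 genes, 1.02% as higher. Those 15425 include genes to which DESeq2 gave no adjusted p, such as Atf5 and Slc7a11, and which it could not call. The DESeq2 shares of all genes given here are low for that reason. limma-voom called 0 members and 0% of all genes, and its unadjusted p lay under 0.05 for 443 higher and 370 lower genes. Values of the diets did not overlap for 13 of 31 members (4 higher, 9 lower), 41.9% against 38.2% of all tested genes (18.5% higher and 19.6% lower), so that share lay near the background. The median log2 fold change was -0.20 over the 31 members and -0.016 over all tested genes.

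**Figure D1:**
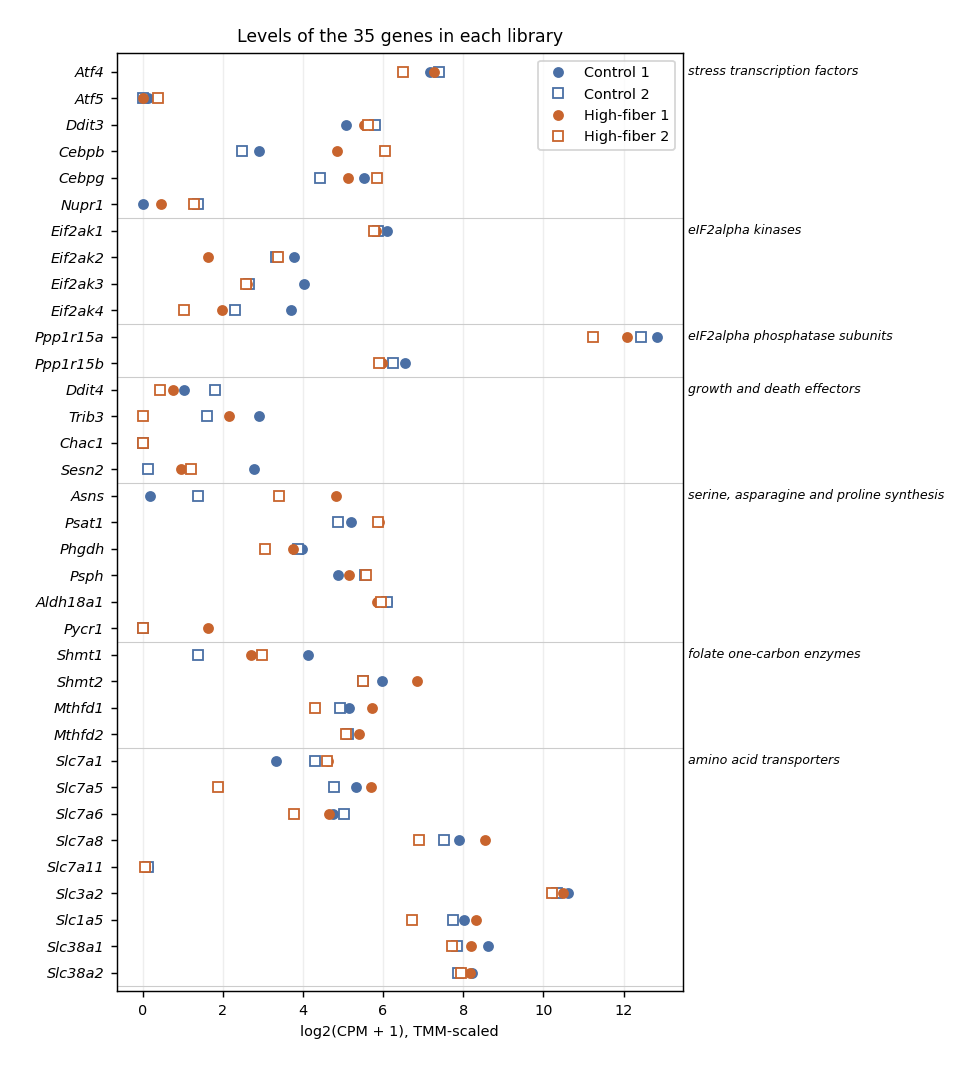
Level of each of the 35 genes in each library, as log2(CPM + 1) on TMM-scaled library sizes, grouped by role. Circles are libraries numbered 1 and squares those numbered 2, blue for the control and orange for the high-fiber diet. Ppp1r15a stood highest at 2427 to 7285 CPM, and Chac1 was at 0 in all 4 libraries.

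Many of these genes are known targets of ATF4, which binds a composite element shared with C/EBP proteins. The letters TGATGNAA, on either strand (TTNCATCA on the other), were searched in RefSeq promoter windows of GRCm38.p6 from 250 bases before to 50 after the annotated start. A window was at hand for 31 of the 35 genes. Slc38a1, Slc7a5, Slc1a5 and Ppp1r15b had none and were not searched. The element stood in any window of 6 of them, 19.4%, against 4.51% of 27025 genes with a window. Known ATF4 targets were put in the set by name, so a higher share was built in and no conclusion is drawn from it. The stretches around the matches are shown because they mark which members carry the letters of the element, with the match in capitals. Positions are counted from the start, with -1 as the last base before it.
Asns, chr6:7693210-7693257, minus strand, match from -23: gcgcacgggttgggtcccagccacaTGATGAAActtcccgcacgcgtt
Chac1, chr2:119351024-119351081, plus strand, match from -193: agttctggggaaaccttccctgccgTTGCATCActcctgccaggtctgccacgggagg
Nupr1, chr7:126625548-126625605, minus strand, match from -110: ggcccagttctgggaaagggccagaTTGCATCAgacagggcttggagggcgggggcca
Pycr1, chr11:120643819-120643876, minus strand, match from -103: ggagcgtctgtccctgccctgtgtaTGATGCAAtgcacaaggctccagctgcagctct
Slc7a11, chr3:50443628-50443704, minus strand, matches from -66 and -47: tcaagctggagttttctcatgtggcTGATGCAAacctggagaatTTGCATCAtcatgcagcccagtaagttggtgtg
Trib3, chr2:152344029-152344056, minus strand, match from 15: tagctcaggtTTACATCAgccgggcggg
Most of these genes were barely detected. Chac1, Pycr1 and Slc7a11 were too low to test, Nupr1 and Trib3 did not exceed 1.62 and 6.49 CPM in any library, and Asns reached 27.4 CPM in high-fiber library 1. A match is a description of letters and not evidence of binding in these cells.

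Among the transcription factors, Atf4 (NCBI gene 11911), the central factor of the response, stood at 143 (control 1), 168 (control 2), 153 (high-fiber 1) and 89.1 CPM (high-fiber 2). Pairs of values below follow this order of libraries, control before high-fiber. High-fiber library 2 was the low one and the diets overlapped (log2 fold change -0.35 ± 0.31, SE, edgeR adjusted p = 0.821). Ddit3, which encodes CHOP, a death-promoting factor induced by ATF4, was at 32.8 and 54.2 against 45.0 and 48.6 CPM (0.12 ± 0.35). Its gene overlaps Mars1 and Mbd6 in the annotation, and since the strand setting of the counting is not given, reads may be shared between them. Cebpg, a C/EBP protein that pairs with ATF4, was at 45.4 and 20.6 against 33.7 and 57.0 CPM (0.41 ± 0.47), again with overlapping diets. Nupr1, a small stress-induced chromatin protein, held 0, 34, 11 and 29 counts in control 1, control 2, high-fiber 1 and high-fiber 2. Atf5, a relative of ATF4 controlled in the same way, held 3, 0, 0 and 6 counts and was not tested. Both sat near the limit of detection, where a library with 0 counts may hold up to 3, and the gene of Atf5 overlaps Nup62 and Il4i1b.

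Cebpb (NCBI gene 12608, chr2:167688915-167690432) had the largest gap between diets in this class. It encodes C/EBP-beta, a transcription factor of inflammatory and stress responses that also binds with ATF4. It was at 6.42 and 4.53 CPM on the control diet and at 28.0 and 65.7 CPM on the high-fiber diet, so both high-fiber libraries lay above both control libraries. The log2 fold change was 3.03 ± 0.61 (SE), with an adjusted p = 0.444 by edgeR and 3.44e-05 by DESeq2. Over all 18 alternatives the adjusted p ran from 7.45e-07 to 0.998. The DESeq2 call was lost without high-fiber library 2 (2.36, adjusted p = 0.137). C/EBP-beta is also abundant in myeloid cells, and the summed macrophage, monocyte and dendritic cell markers, with 14 of 15 detected and Itgax at 0, were at 417 and 628 CPM on the control and 494 and 549 CPM on the high-fiber diet. That sum pooled genes with log2 fold changes of both signs. Of the 11 tested genes of that list, 1 (Apoe) was higher and 2 (Ccr2 and Zbtb46) were lower without overlap between diets. Of all tested genes, 18.5% were higher and 19.6% lower without overlap, so these counts did not exceed the background. Log2 fold changes were positive for 7 and negative for 4 of the 11, with a median of 0.33. Apoe was at 85.2 and 154 against 202 and 192 CPM, and Ccr2 at 176 and 257 against 94.2 and 118 CPM. Lyz2 was at 22.3 and 75.3 against 72.3 and 106 CPM, with overlapping diets. Summed B and plasma cell markers, with 12 of 13 detected and Tnfrsf17 at 0, were at 1041 and 990 CPM against 1249 and 2197 CPM. Of the 8 tested genes of that list, 7 were higher without overlap, against 18.5% of all tested genes. Of these 7, 5 had an unadjusted p under 0.05 by edgeR, where 4.7% of all tested genes were higher at that p. Both edgeR and DESeq2 called 0. Igkc, the kappa light chain, was at 37.4 and 4.15 against 112 and 458 CPM. Their part in the Cebpb values was not tested.

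**Figure D2:**
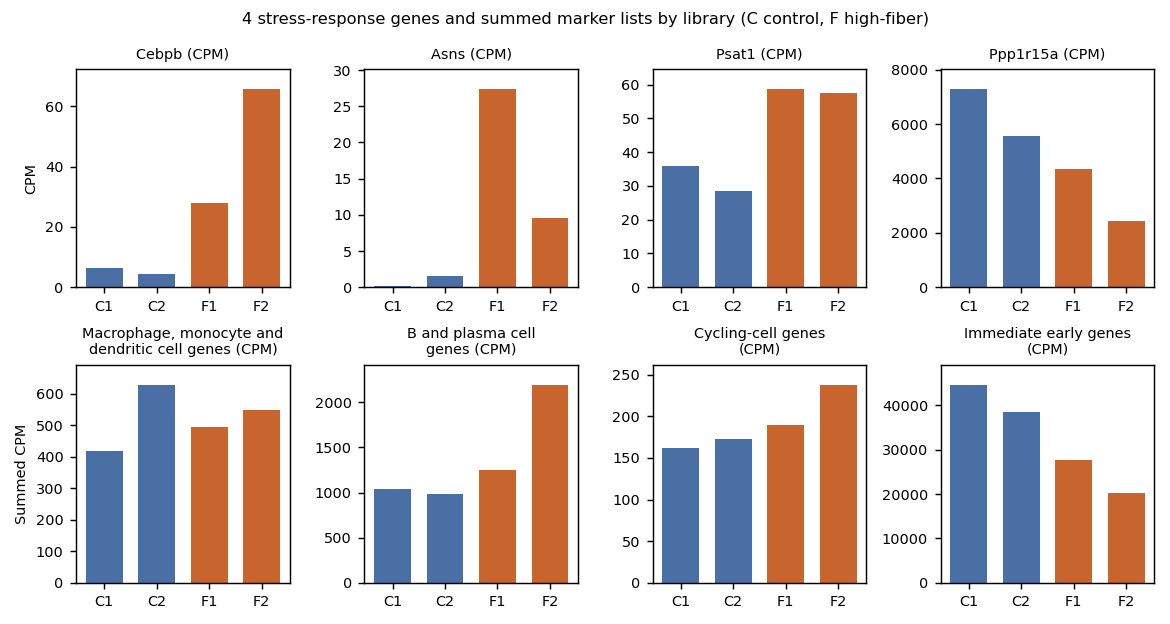
CPM of Cebpb, Asns, Psat1 and Ppp1r15a (top) and summed CPM of 4 marker lists (bottom) in control libraries C1 and C2 (blue) and high-fiber libraries F1 and F2 (orange). Bars start at 0, each bar is 1 mouse, and each of the 4 genes has both libraries of one diet above both of the other.

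All 4 eIF2alpha kinases had negative log2 fold changes in the fit to all libraries, and 0 passed edgeR's test, lay at an unadjusted p under 0.05 or were called by DESeq2. Eif2ak1, the heme-regulated kinase HRI, was the most abundant by CPM per kilobase of exon, at 15.6 and 13.3 on the control and 12.8 and 12.5 on the high-fiber diet. It made up 66.8% to 86.8% of the summed kinase level per length. In CPM its log2 fold change was -0.20 ± 0.27 (edgeR adjusted p = 0.905), and the 2 diets did not overlap although they lay close. Its gene overlaps Aimp2 and Ankrd61, so reads may be shared. Eif2ak4, which encodes GCN2, the sensor of uncharged tRNA in amino acid shortage, was at 11.9 and 3.91 against 2.94 and 1.03 CPM. Control library 1 was its high library and high-fiber library 2 its low one (-1.97 ± 0.91, adjusted p = 0.625), and the value was -0.88 without control library 1 and -3.00 without high-fiber library 1. Eif2ak3, which encodes PERK, the sensor of unfolded protein in the endoplasmic reticulum, was at 15.4 and 5.24 against 5.13 and 4.96 CPM (-1.10 ± 0.74, adjusted p = 0.754). Here control library 1 alone stood above the other 3, and without it the log2 fold change was -0.051. Eif2ak2, which encodes PKR, the sensor of double-stranded RNA, was at 12.7 and 9.01 against 2.08 and 9.37 CPM (-1.08 ± 0.78), low only in high-fiber library 1, without which the value was -0.22.

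The phosphatase subunits that reverse eIF2alpha phosphorylation were lower in both high-fiber libraries without passing the test. Ppp1r15a (NCBI gene 17872, chr7:45522917-45526268), which encodes GADD34, the inducible subunit that restores translation after stress, was the most abundant member. It was at 7285 and 5570 CPM on the control and 4358 and 2427 CPM on the high-fiber diet. High-fiber library 2 was lowest and control library 1 highest. The log2 fold change was -0.92 ± 0.34, with an unadjusted p = 0.0306 and an adjusted p = 0.499 by edgeR and an adjusted p = 0.151 by DESeq2. By DESeq2 its log2 fold change was -1.37 without high-fiber library 1 and -0.56 without high-fiber library 2. Ppp1r15b, the constitutive subunit, was at 92.7 and 74.9 against 61.6 and 58.9 CPM (-0.48 ± 0.26, adjusted p = 0.687). Per length, Ppp1r15a exceeded Ppp1r15b 150-, 142-, 135- and 78.5-fold in control 1, control 2, high-fiber 1 and high-fiber 2.

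Ppp1r15a is also known as an early response gene of stimulated or handled cells. The 16 listed immediate early genes, Ppp1r15a not among them, summed to 44665 and 38468 CPM on the control and 27636 and 20258 CPM on the high-fiber diet, which is the same order of libraries as for Ppp1r15a. Of those 16 genes, 0 passed edgeR's test over all genes, 9 had an unadjusted p under 0.05 (each of them lower), where 4.1% of all tested genes were lower, and DESeq2 called 8 lower, where it called 0.506% of genes lower. Their part in the Ppp1r15a values was not tested. The promoter window of Ppp1r15a was the 1 among the 31 windows to hold the letters of the cyclic AMP response element bound by CREB and ATF proteins (TGACGTCA, the same on both strands), which stood in 2.03% of 27025 genes. It is shown for its place next to the start, with the element in capitals from -12.
Ppp1r15a, chr7:45526269-45526305, minus strand: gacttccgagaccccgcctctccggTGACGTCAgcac

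The 4 members classed here as regulators of growth and death downstream of ATF4 were scarce in every library. Chac1, which degrades glutathione and is among the sharpest ATF4 targets, had 0 counts in all 4 libraries, each of which allows up to 3 counts. Trib3, a pseudokinase that restrains ATF4 and AKT, held 196, 43, 99 and 0 counts in control 1, control 2, high-fiber 1 and high-fiber 2 (edgeR log2 fold change -1.21 ± 1.11, adjusted p = 0.832). Its value was -0.059 without control library 1 and -9.77 without high-fiber library 1, the latter set against a library with 0 counts and so no measure of size. Ddit4, which encodes REDD1, an inhibitor of mTORC1, held 32, 52, 20 and 7 counts (-1.58 ± 0.95, adjusted p = 0.713). Its control libraries were above its high-fiber libraries, at no more than 2.48 CPM. Sesn2, which encodes sestrin 2, a leucine-binding inhibitor of mTORC1, was at 5.86 CPM in control library 1 and at 0.0953, 0.935 and 1.33 CPM in the others. Its log2 fold change of -1.63 rested on control library 1 and turned to 3.46 without it.

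Enzymes that build amino acids had log2 fold changes of both signs, and none passed edgeR's test. Asns (NCBI gene 27053, chr6:7675165-7693209), asparagine synthetase, held 4 and 34 counts in the control libraries against 790 and 195 in the high-fiber libraries. In CPM this was 0.132 and 1.62 against 27.4 and 9.57, so both high-fiber libraries lay above both control libraries, with high-fiber library 1 the highest. The log2 fold change was 4.68 ± 1.09, with an adjusted p = 0.447 by edgeR and 0.00841 by DESeq2, and 1.28e-05 to 0.998 over the 18 alternatives. The DESeq2 call was lost without control library 1 (3.52, adjusted p = 0.0528) and without high-fiber library 1 (3.49, adjusted p = 0.228). Its level on the high-fiber diet, 12.7 and 4.43 CPM per kilobase, was below that of Psat1 on the same scale.

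The 3 enzymes of serine synthesis from glucose differed in sign. Psat1, the aminotransferase of the second step, was at 35.8 and 28.5 CPM on the control and 58.6 and 57.4 CPM on the high-fiber diet. The high-fiber libraries lay close to each other and above both control libraries (0.84 ± 0.30, unadjusted p = 0.0288, adjusted p = 0.496 by edgeR and 0.317 by DESeq2). Phgdh, the first enzyme of the route, was at 14.6 and 13.7 against 12.4 and 7.26 CPM (-0.49 ± 0.53), with high-fiber library 2 the lowest. Psph, the last enzyme, was at 28.4 and 45.6 against 34.4 and 46.5 CPM (0.14 ± 0.38), with the libraries numbered 2 high in both diets. Psph overlaps Cct6a in the annotation, so its reads may be shared. For proline, Aldh18a1, the entry enzyme, was at 67.3 and 67.6 against 56.4 and 60.4 CPM (-0.21 ± 0.26), and Pycr1, the last enzyme, had 61 counts in high-fiber library 1 and 0 in the other 3 libraries and was not tested.

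None of the 4 folate enzymes separated the diets. Shmt2, the mitochondrial serine hydroxymethyltransferase that feeds carbon from serine into folate, was at 61.9 and 44.1 CPM on the control and 114 and 44.0 CPM on the high-fiber diet (0.58 ± 0.47, edgeR adjusted p = 0.802). High-fiber library 1 alone was high, and without it the log2 fold change was -0.25. Mthfd1, the cytosolic folate enzyme, was at 34.6 and 29.3 against 51.5 and 18.7 CPM (0.17 ± 0.50), with the 2 high-fiber libraries at either end. Mthfd2, a mitochondrial folate enzyme and an ATF4 target, varied least, at 32.4 and 33.6 against 41.0 and 32.7 CPM (0.17 ± 0.33). Shmt1, the cytosolic serine hydroxymethyltransferase, was at 16.6 and 1.62 against 5.47 and 6.92 CPM (-0.71 ± 0.94), with control 1 the highest and control 2 the lowest library. Folate enzymes are used heavily by dividing cells, and the 15 listed cycling-cell genes, with 14 detected and Bub1 at 0, summed to 162 and 173 CPM on the control and 189 and 238 CPM on the high-fiber diet. Of the 12 tested genes of that list, 2 (Ccnb2 and Tyms) were higher without overlap and 10 overlapped, where 18.5% of all tested genes were higher without overlap. DESeq2 called those 2, where it called 1.02% of genes higher, and edgeR called 0. The part of dividing cells in these values was not tested.

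**Figure D3:**
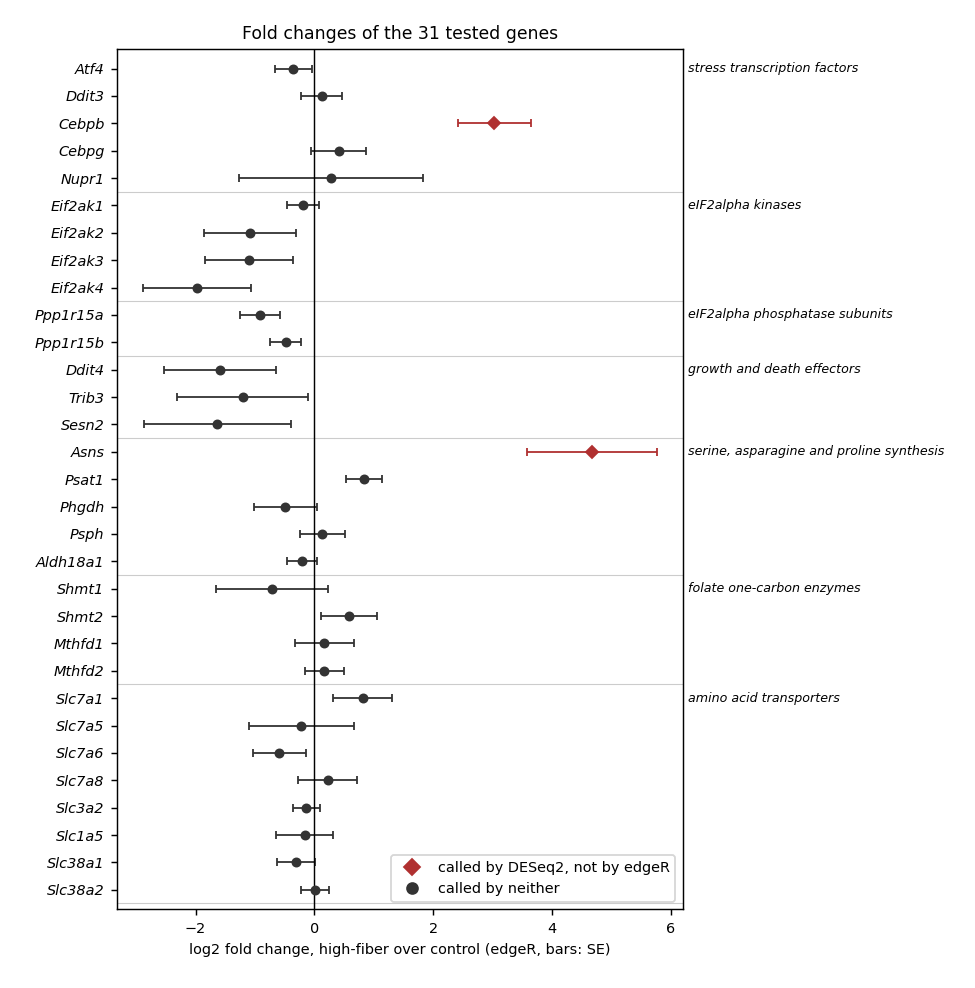
Log2 fold change of each of the 31 tested genes, high-fiber over control, from edgeR, with bars of 1 standard error, grouped by role. Positive values are higher on the high-fiber diet, and the red diamonds at 3.03 (Cebpb) and 4.68 (Asns) are the 2 genes called by DESeq2.

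Amino acid transporters were, in summed level per length, the second most abundant class after the phosphatase subunits. Of 8 tested genes 0 passed edgeR's test, 0 lay at an unadjusted p under 0.05, 0 were called by DESeq2, and there was a median log2 fold change of -0.15. Slc3a2, the CD98 heavy chain that carries several light-chain transporters to the cell surface, was the highest on the scale of CPM per kilobase, at 521 and 428 on the control and 474 and 390 on the high-fiber diet. In CPM it was at 1575 and 1294 against 1433 and 1179, with overlapping diets (-0.14 ± 0.23, edgeR adjusted p = 0.921). Its light chains were uneven. Per kilobase, Slc7a8, the LAT2 light chain for large neutral amino acids, was at 58.5 and 44.4 against 91.2 and 28.9. Slc7a5, the LAT1 light chain that brings leucine into activated lymphocytes, was at 11.1 and 7.51 against 14.5 and 0.753. Slc7a6, a light chain that exchanges cationic for neutral amino acids, was at 6.87 and 8.36 against 6.42 and 3.38. Slc7a8 thus exceeded Slc7a5 5.28-, 5.92-, 6.30- and 38.4-fold in control 1, control 2, high-fiber 1 and high-fiber 2.

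The low level of Slc7a5 in high-fiber library 2 set that library apart from the other high-fiber library. Slc7a5 held 1177, 554, 1469 and 54 counts in control 1, control 2, high-fiber 1 and high-fiber 2 (-0.22 ± 0.88, edgeR adjusted p = 0.972). Without high-fiber library 1 its log2 fold change was -3.62 and without high-fiber library 2 it was 0.61, so the 2 high-fiber mice lay on opposite sides of the controls. Slc1a5, the glutamine carrier ASCT2, had the same layout, at 259 and 215 CPM on the control and 317 and 104 CPM on the high-fiber diet (-0.16 ± 0.48). Its value was -1.16 without high-fiber library 1 and 0.42 without high-fiber library 2. Slc7a8 in CPM was at 239 and 181 against 372 and 118 (0.23 ± 0.50), in the same order. Slc3a2 over the sum of the 3 tested light chains of the set (Slc7a5, Slc7a6 and Slc7a8), per length, was 6.82 and 7.10 on the control and 4.23 and 11.8 on the high-fiber diet.

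Slc7a1, the cationic carrier CAT1 that takes up arginine and lysine, was the 1 transporter with both high-fiber libraries above both control libraries, at 9.11 and 18.7 against 23.6 and 23.4 CPM (0.81 ± 0.49, edgeR adjusted p = 0.726). Slc7a6 was the 1 tested transporter with both below, at 25.8 and 31.4 against 24.1 and 12.7 CPM (-0.59 ± 0.45, adjusted p = 0.791). The glutamine and neutral amino acid carriers of the SNAT family overlapped between diets. Slc38a2, which is itself induced by amino acid shortage, was at 295 and 234 against 286 and 247 CPM (0.010 ± 0.23, a sign that turned to -0.030 without scaling factors). Slc38a1 was at 391 and 230 against 291 and 209 CPM (-0.31 ± 0.32). Slc7a11, the cystine carrier of glutathione supply and an ATF4 target, held 3, 2, 1 and 1 counts and was not tested.

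**Figure D4:**
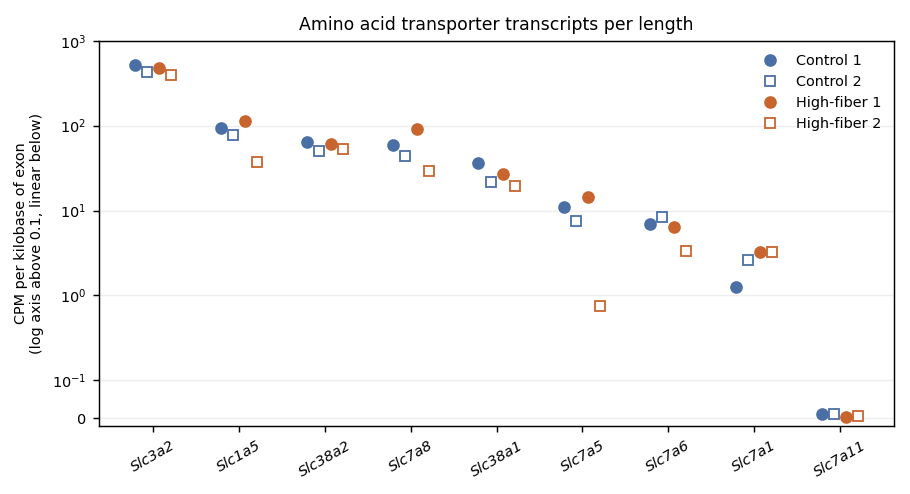
Level of the 9 transporter transcripts per library in CPM per kilobase of exon, on an axis that is logarithmic above 0.1 and linear below, ordered by mean. Colours and shapes are as in the plot of all 35 levels, and high-fiber library 2 (open orange squares) is the lowest library for Slc3a2, Slc1a5, Slc7a8, Slc38a1, Slc7a5 and Slc7a6.

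High-fiber library 2 held the lowest value of 17 of the 31 tested members, control 1 and control 2 of 6 each and high-fiber 1 of 2. Over all tested genes, high-fiber library 2 was the lowest for 31.8%. That library had counts for 12685 genes, against 13121 in control 1, 13058 in control 2 and 13399 in high-fiber 1. The part of this in the member values was not tested. Control library 1 was the highest for 13 members, high-fiber 1 for 9, control 2 for 6 and high-fiber 2 for 3, where these libraries were the highest for 24.8%, 24.3%, 22.5% and 28.3% of all tested genes. Together the 35 genes took 10852 and 8470 CPM on the control and 7952 and 4998 CPM on the high-fiber diet. Ppp1r15a alone was 48.6% to 67.1% of that, and without it the sums were 3566 and 2900 against 3594 and 2571 CPM, with overlapping diets.

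Other genes of the same pathways were read from 6 further lists, and 0 of their 122 tested genes passed edgeR's test over all genes. At an unadjusted p under 0.05, 4 were higher and 4 lower, where 8.8% of all tested genes lay under it, and DESeq2 called 4, where it called 1.53% of all genes. The 20 aminoacyl-tRNA synthetases, which charge tRNA with amino acids and are broadly induced by ATF4, stayed within log2 fold changes of -0.59 and 0.25, with a median of -0.045 and 0 called by DESeq2. Eprs, at 1518 and 922 against 840 and 782 CPM, had the smallest p among them (-0.59 ± 0.28, edgeR adjusted p = 0.637). Farsb followed, at 63.0 and 74.6 against 48.1 and 45.4 CPM (-0.55 ± 0.27). The 16 tested genes of eIF2, its exchange factor eIF2B and linked regulators had a median of 0.16, 11 of them positive, and 0 called by DESeq2. Eif2b4, at 43.0 and 46.6 against 59.8 and 57.8 CPM, had the smallest p there, followed by Ppp1ca (0.40 ± 0.28 and 0.27 ± 0.23).

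Of 23 tested genes in a list of other ATF4-linked genes, DESeq2 called Atf3 lower and Jdp2 higher, and the median was -0.10. Atf3, a stress factor downstream of ATF4 that is also an immediate early gene, was at 658 and 755 against 299 and 347 CPM (-1.13 ± 0.21, adjusted p = 0.401 by edgeR and 4.23e-04 by DESeq2). Jdp2, a repressor related to ATF3, was at 25.5 and 24.6 against 58.9 and 55.8 CPM (1.19 ± 0.30, adjusted p = 0.447 and 0.0383). The 2 neighbours in function thus lay on opposite sides. Of 20 tested partners of folate, methionine and serine metabolism, DESeq2 called Tyms, thymidylate synthase, higher, at 21.3 and 13.0 against 49.0 and 52.6 CPM (1.53 ± 0.37, adjusted p = 0.447 by edgeR and 0.0260 by DESeq2). Tyms is also in the cycling-cell list. Mat2a, which makes the methyl donor S-adenosylmethionine, was at 205 and 254 against 160 and 112 CPM (-0.75 ± 0.27, adjusted p = 0.491).

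Among 20 tested transporters outside the set the median log2 fold change was -0.48, with 5 positive and 15 negative. The mitochondrial carriers Slc25a38, for glycine, and Slc25a22, for glutamate, had the smallest p at a mean of at least 5 CPM (-0.76 ± 0.30 and -1.38 ± 0.57, edgeR adjusted p = 0.536 and 0.561). DESeq2 called 1, Slc38a5, a glutamine carrier named here after its values were seen, with 0 counts in both control libraries and 55 and 72 counts in the high-fiber libraries (DESeq2 adjusted p = 0.0298, edgeR adjusted p = 0.447). The 23 tested genes of lysosomal amino acid sensing and mTORC1 had a median of 0.0067, with 12 positive and 11 negative and 0 called by DESeq2. Castor1, the arginine sensor, was at 56.0 and 45.9 against 99.8 and 68.9 CPM (0.73 ± 0.30, edgeR adjusted p = 0.567), and Mtor, the kinase itself, at 29.2 and 16.0 against 16.5 and 9.32 CPM (-0.80 ± 0.53).

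**Figure D5:**
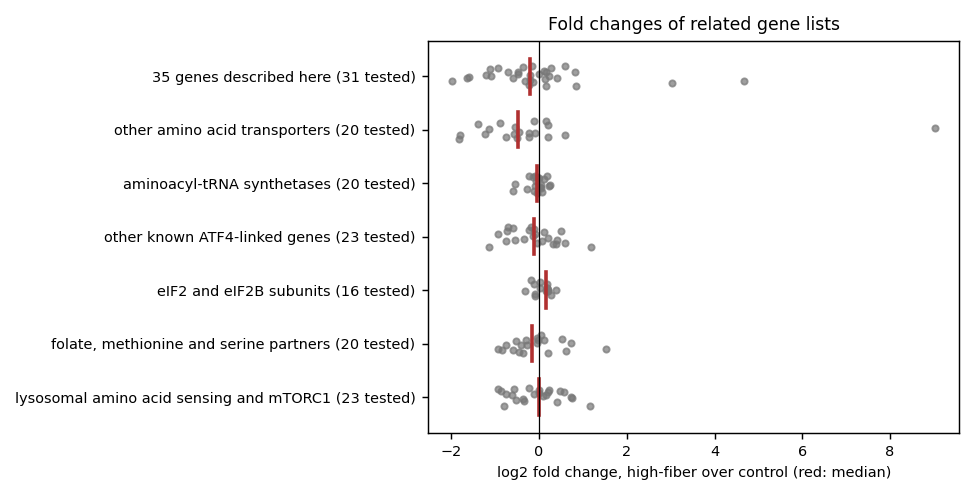
Log2 fold changes, high-fiber over control, of the tested genes of the set and of 6 related lists. Each grey point is 1 gene, spread vertically at random for legibility, and the red bar is the list's median, from -0.48 for other transporters to 0.16 for eIF2 and eIF2B subunits.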

How the data were processed

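The authors deposited whole-number read counts per NCBI gene and library, not normalized. The kit was SMARTer Ultra Low Input, with PCR amplification, per the labels' protocols. CASAVA 1.8.2, STAR 2.3.0 and mm10 are named in the submitters' processing notes. The sources used here give no counting program or strand setting. Symbols came from RefSeq GRCm38.p6 (25275 of 27179 genes; the rest held 0.212% to 0.248% of counts) and exon lengths from GENCODE on the same assembly. Of 15425 genes with counts, filterByExpr kept 11841. In R 4.3.3, edgeR 4.0.16 fitted intercept and diet with TMM scaling, glmQLFit (legacy=FALSE) and glmQLFTest, with Benjamini-Hochberg adjustment at 0.05 over all genes and positive log2 fold changes for higher on high-fiber. Standard errors are the fold change over the root of F. The fit had 2 residual degrees of freedom and was tested on simulated data. Alternatives were other scalings and filters, DESeq2 1.42.0 (alpha at the threshold), limma-voom 3.58.1, legacy and robust fits, a replicate block and each library left out. All members are named. Of the 6 related lists, the 2 genes of smallest p at a mean of 5 CPM are named, with any called by DESeq2. Genes of the marker lists were named outside that rule. Members and lists were chosen with earlier results of these data known. Counting intervals exclude PCR effects, and each mouse was 1 replicate.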

Additional observations from a re-analysis of the deposited data

How the results depend on the processing

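The number of members with an adjusted p under 0.05 was 0 in each of the 9 alternatives that neither left out a library nor used DESeq2, in the 4 edgeR fits without 1 library and at a threshold of 0.1. DESeq2 called 2, and 1 to 5 without 1 library. The 5 were Cebpb, higher, and Ppp1r15a, Trib3, Slc7a5 and Slc1a5, lower, without high-fiber library 1; the lone library is then assumed to vary like the others. With the replicate block, the count was 0 and the median log2 fold change of members -0.21. Deviations of same-numbered libraries correlated at 0.081 across genes, and nothing in the labels says that a number marks a shared animal or day. Without 1 library the median ran from -0.49 (without high-fiber 1) to 0.0072 (without control 1, DESeq2). Slc38a2 changed sign without scaling factors (-0.030). In fits without 1 library 14 of 31 members changed sign and 17 did not. The log2 fold changes of the 14 ran from -0.013 to 1.16 for Cebpg, -0.21 to 0.53 for Ddit3, -0.75 to 0.69 for Mthfd1, -1.08 to 7.45 for Nupr1, -0.18 to 0.53 for Psph, -2.41 to 3.59 for Sesn2, -1.44 to 1.95 for Shmt1, -0.25 to 1.11 for Shmt2, -1.16 to 0.43 for Slc1a5, -0.65 to 0.14 for Slc38a1, -0.15 to 0.21 for Slc38a2, -0.27 to 0.030 for Slc3a2, -3.62 to 0.64 for Slc7a5 and -0.81 to 0.83 for Slc7a8. Among those that kept their sign, the value over the edgeR and DESeq2 fits ran from -9.77 to -0.059 for Trib3, -3.00 to -0.88 for Eif2ak4, -2.42 to -0.18 for Eif2ak2, -1.61 to -0.039 for Eif2ak3, -0.77 to -0.022 for Atf4 and 3.49 to 7.14 for Asns. The cause was not tested. With 2 mice per diet the edgeR fit put the coefficient of variation between mice at 0.607, and 0 counts in a library allow up to 3.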
